A study of Mus musculus with 10 samples.

Results

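The epidermal barrier lipid genes described here are 10 genes that build or process the acylceramides of the cornified lipid envelope, namely *Elovl4*, *Cyp4f39*, *Cers3*, *Pnpla1*, *Ugcg*, *Abca12*, *Smpd3*, *Alox12b*, *Aloxe3* and *Sdr9c7*. They were chosen by name from the acylceramide and lipoxygenase pathway and were all found among the 24452 named genes of the count table. RNA was sequenced from whole-thickness back skin without tumors of 5 WT and 5 *Zfp36*ΔARE C57BL/6 mice, 1 library per mouse. All mice, 7 weeks old at the start and with littermates as controls, had received 400 nmol of the mutagen DMBA once and then 10 nmol of the tumor promoter TPA 2 times a week for 20 weeks, so that no untreated skin was compared. The *Zfp36*ΔARE allele (labelled TTP delta ARE, columns KI) is a knockin that removes AU-rich instability elements from the endogenous *Zfp36* gene in every cell of the body. It therefore does not separate keratinocytes from other cells of the skin. *Zfp36* encodes tristetraprolin (TTP), an RNA-binding protein that promotes the decay of mRNAs with AU-rich elements.

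The libraries held between 21638369 and 32583189 counts in WT skin and between 19595024 and 36419553 in *Zfp36*ΔARE skin, and the 10 genes took between 0.121% and 0.246% of the counts of a library. *Zfp36* itself had between 1824 and 2496 normalized counts (scaled by edgeR's TMM factors to a common library size) in WT and between 4196 and 6134 in *Zfp36*ΔARE skin, a log2 fold change (*Zfp36*ΔARE minus WT, as throughout) of 1.33 (SE 0.12, adjusted p = 0.0019 by edgeR's quasi-likelihood test). The labels were therefore matched by the targeted gene in each library. Basal, spinous and granular keratinocyte markers were detected in each library, with no marker at 0. Y-linked genes had summed counts of 3349 to 4262 in *Zfp36*ΔARE replicates 2 to 5 and of at most 1 in the other 6 libraries. These marks of sex and the genotype cannot be told apart, since *Zfp36*ΔARE replicate 1 was the 1 library of its genotype without them. WT replicates 1 and 3 also stood apart, with hair shaft marker scores (mean log2 of CPM + 1 over 15 hair keratins and related genes) of 5.27 and 2.65, against 7.41 to 7.78 in the other 3 WT and 8.49 to 9.67 in the *Zfp36*ΔARE libraries.

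The water barrier of the skin lies in the cornified layer, where dead keratinocytes are embedded in lipid sheets made in the granular layer below. Its special lipids are acylceramides, in which an ultra-long fatty acid is bound to a sphingoid base and carries linoleic acid at its far end. ELOVL4 elongates the fatty acid, CYP4F39 hydroxylates its far end, CERS3 joins it to the base and PNPLA1 transfers the linoleic acid. UGCG adds a glucose, and ABCA12 loads the glucosylated lipid into lamellar granules for secretion. The lipoxygenases 12R-LOX (*Alox12b*) and eLOX3 (*Aloxe3*) and then SDR9C7 oxidize the linoleate so that the ceramide can be bound to the protein envelope, while the sphingomyelinase encoded by *Smpd3* releases ceramide from sphingomyelin. Loss of most of these enzymes causes ichthyosis or a lethal barrier defect in mice or humans.

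TTP binds AU-rich elements whose core is ATTTA in DNA letters, most strongly within TATTTAT. The annotated 3′-UTRs of the 10 genes (GENCODE M21 on GRCm38, the mm10 genome used by the authors) were therefore read for these letters on the transcript strand, and the TATTTAT sites are shown because they differ in number between the most decreased and the increased gene. At least 1 ATTTA was found in 8 of the 10 genes, against 68.4% of 14387 tested genes with an annotated 3′-UTR, and at least 1 TATTTAT in 4 genes, against 29.3%. Any TATTTAT is also counted as an ATTTA. The median 3′-UTR length over the 14387 genes was 1110 bases, while the 4 genes with TATTTAT had 1799 to 2440 bases. These shares were not matched for length, so they do not show an excess of motifs. *Elovl4* held 9 ATTTA and 2 TATTTAT in 1848 bases, *Pnpla1* held 3 and 1 in 2228 bases, *Ugcg* held 6 and 1 in 2440 bases, and *Sdr9c7* held 3 and 1 in 1799 bases. The 3′-UTRs of *Alox12b* (67 bases) and *Aloxe3* (376 bases) held neither. The 5 TATTTAT sites are printed 5′ to 3′ on the strand of the transcript, with the motif in capitals:
Elovl4 site near the start of the 3′-UTR, chr9:83780361-83780389, minus strand: cccagatgtttTATTTATgaagtttttat
Elovl4 site near its end, chr9:83778912-83778940, minus strand: aaattataaagTATTTATtgtgcgttgag
Pnpla1 site, chr17:28889743-28889771, plus strand: aggccaatgttTATTTATgagtctgagct
Ugcg site, chr4:59221026-59221054, plus strand: ctggagtctagTATTTATataaatctgtg
Sdr9c7 site, chr10:127910476-127910504, plus strand: cctgtttcaagTATTTATtgagcacttac
These matches are letters in an annotation, and binding was not measured. A TATTTAT site was thus present in *Elovl4*, which decreased, in *Pnpla1*, which increased, and in *Ugcg* and *Sdr9c7*, which were not called. None was found in *Aloxe3* and *Abca12*, which also decreased.

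Over all 10 genes, 4 passed an adjusted p of 0.05, against 34.3% of the 15543 genes tested. *Elovl4*, *Aloxe3* and *Abca12* were lower in *Zfp36*ΔARE skin, where 19.1% of all tested genes were called lower, and *Pnpla1* was higher, where 15.3% were called higher. The share of called genes was thus near that of the transcriptome as a whole. None of the 10 genes also passed a fold change of 2, which 8.31% of all genes did, and in none did the 5 values of one group lie wholly beyond those of the other, which was so for 23.1% of all genes. The median log2 fold change of the 10 genes was -0.23, against 0.01 over all genes. In whole skin, fewer cells of a type and less RNA per cell cannot be told apart.

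**Figure D1:**
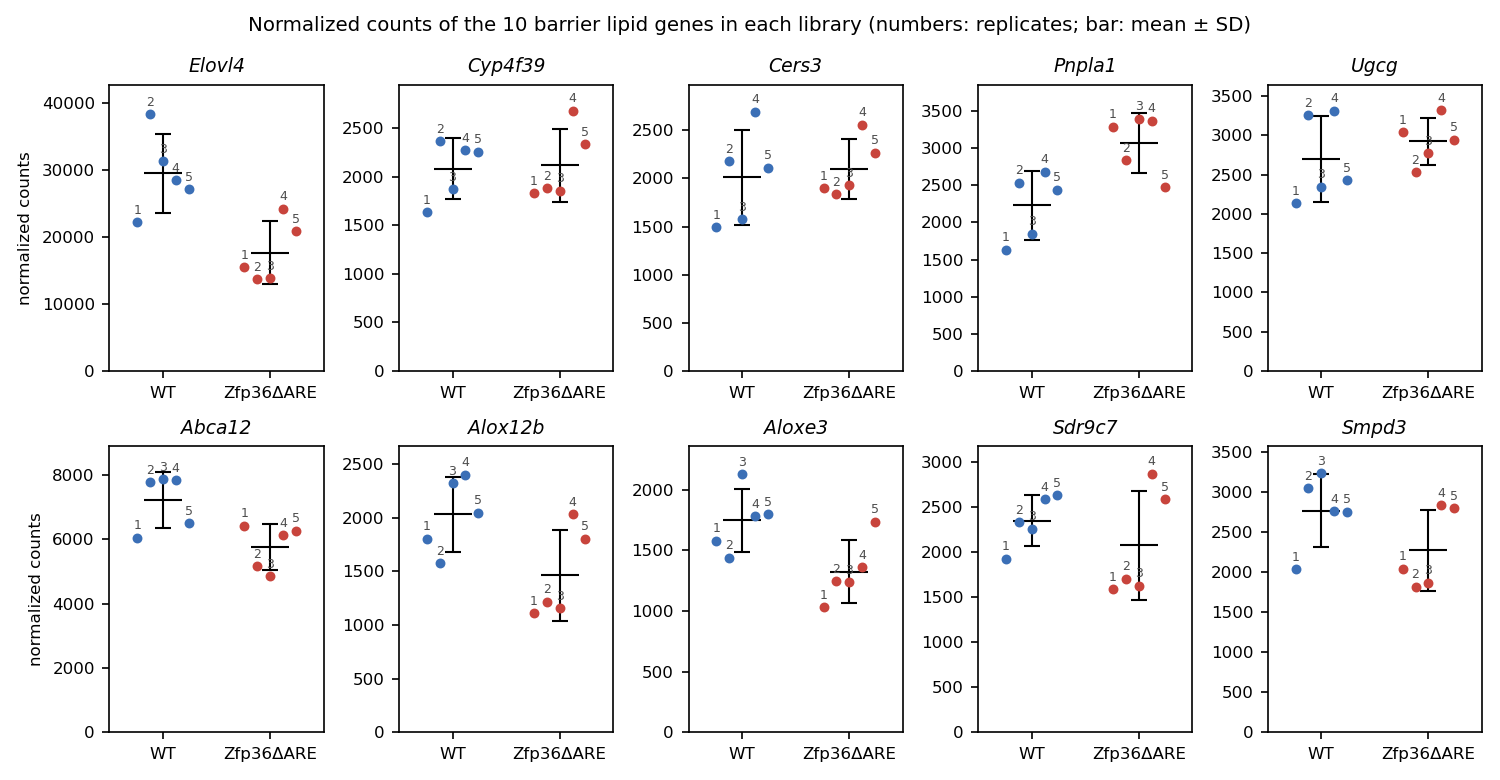
Normalized counts (y axis, linear from 0) of the 10 genes in each of the 5 WT (blue) and 5 *Zfp36*ΔARE (red) libraries, numbered by replicate, with the mean ± SD as bars. *Elovl4* overlaps between the groups only through *Zfp36*ΔARE replicate 4 (24212) and WT replicate 1 (22239), and replicates 1 to 3 of *Zfp36*ΔARE are the 3 lowest of their group in 7 of the 10 genes.

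Per length, *Elovl4* was by far the most abundant of the 10 transcripts. Its level was 362 ± 72.7 RPKM in WT and 216 ± 57.4 RPKM in *Zfp36*ΔARE skin (SD, n = 5 each), from the gene lengths in the count table. The other 9 genes lay close together, between 18.6 and 32.5 RPKM in WT and between 16.5 and 30.3 RPKM in *Zfp36*ΔARE skin. In WT skin the order below *Elovl4* was *Abca12* (32.5 ± 3.91), *Alox12b* (32.4 ± 5.54), *Sdr9c7* (30.8 ± 3.73), *Cyp4f39* (29.8 ± 4.48), *Ugcg* (27.2 ± 5.55), *Aloxe3* (25.8 ± 3.86), *Cers3* (23.2 ± 5.66), *Smpd3* (20.1 ± 3.31) and *Pnpla1* (18.6 ± 3.84). Each pair of neighbours in this order below *Elovl4* differed by less than 1 SD. In *Zfp36*ΔARE skin *Pnpla1*, the lowest gene in WT, reached 25.7 ± 3.38 RPKM and *Smpd3* was lowest at 16.5 ± 3.68.

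Elongation, at the head of the pathway, showed the largest log2 fold change of the 10 genes. *Elovl4* lies on chromosome 9 (83778692 to 83806277, minus strand, 6 exons) and encodes the elongase that makes ultra-long fatty acids. In WT skin its normalized counts were 22239, 38322, 31355, 28468 and 27169 in replicates 1 to 5. The *Zfp36*ΔARE libraries had 15508, 13729.9, 13859, 24212 and 20846. *Zfp36*ΔARE replicates 1 to 3 lay well below each WT library, replicate 5 lay just below the lowest of them, and replicate 4 lay within the WT range. The mean decreased from 29510.5 ± 5926 to 17631 ± 4680 (SD, n = 5), a fall of 0.74 on the log2 scale (SE 0.19, 95% interval -1.17 to -0.32, adjusted p = 0.017 by edgeR), which is 40.3% lower. *Elovl4* was the only gene of the 10 that was called with each of the 10 libraries left out in turn, with log2 fold changes from -0.88 to -0.63. It was also called with WT replicates 1 and 3 both left out (-0.83, adjusted p = 0.032), and then its groups did not overlap.

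Some markers of sebaceous glands, which secrete lipids of their own, fell as *Elovl4* did. Of 8 sebaceous markers, 4 fell and none rose, where 19.1% of all tested genes were called lower. *Awat2* (-0.28), *Soat1* (-0.25), *Dgat2l6* (-0.18) and *Mc5r* (0.22) were not called. Summed normalized counts of the 8 markers ranged from 80498 to 167074 in WT and from 48172 to 67057 in *Zfp36*ΔARE skin, and none was at 0. *Scd1* held most of that sum (mean 94411 in WT and 46743 in *Zfp36*ΔARE skin), and the mean log2 score over the 8 markers overlapped between the groups, at 6.36 to 6.83 in WT and 5.91 to 6.41 in *Zfp36*ΔARE skin. With the sebaceous score of each library as a covariate, chosen after seeing the data, the genotype difference of *Elovl4* was -0.10 (adjusted p = 0.78), and the edgeR fit with this term called 0 of all 15543 genes, of which 1934 had an unadjusted p under 0.05. With the score of 6 spinous markers, the keratinocyte layer below the granular one, the difference was -0.47 (adjusted p = 0.054). With the score of the 14 granular layer markers measured, whose ranges overlapped between the groups (7.28 to 7.78 in WT, 7.11 to 7.83 in *Zfp36*ΔARE), it was -0.72 (adjusted p = 0.013). With the hair shaft, skeletal muscle or adipocyte score it was -0.72, -1.09 or -1.02, none past the threshold (adjusted p = 0.27, 0.11 and 0.64). The part of sebaceous and other cells in the difference was not tested.

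Hydroxylation and ceramide synthesis, the steps that follow, showed no detectable difference. *Cyp4f39* (chromosome 17, 32452723 to 32493320), the hydroxylase, had 1633, 2364, 1872, 2271 and 2257.5 normalized counts in WT replicates 1 to 5. The *Zfp36*ΔARE libraries had 1831, 1884, 1854, 2677 and 2333. The groups overlapped almost wholly, with the highest value in *Zfp36*ΔARE replicate 4 and the lowest in WT replicate 1. The log2 fold change was 0.02 (SE 0.14, 95% interval -0.28 to 0.32, adjusted p = 0.90 by edgeR).

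*Cers3* (chromosome 7, 66743504 to 66823691), the ceramide synthase of the differentiated epidermis, had 1493, 2179, 1578, 2695 and 2112 normalized counts in WT skin. *Zfp36*ΔARE replicates 1 to 5 had 1898, 1839, 1928, 2559.5 and 2267. WT replicates 1 and 3 were the lowest of the 10 libraries, and WT replicate 4 the highest. The log2 fold change was 0.06 (SE 0.16, 95% interval -0.30 to 0.42, adjusted p = 0.79 by edgeR), and it turned to -0.15 without WT replicates 1 and 3.

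*Pnpla1*, the transacylase that completes the acylceramide, was the 1 gene called higher. It lies on chromosome 17 (28858411 to 28890309, plus strand, 10 exons), and its exons overlap those of *Pnpla1os* on the opposite strand. The strand setting of the counter is not given in the sources used here, and reads of the pair may be mixed. *Pnpla1* had 1635, 2535, 1849, 2685.5 and 2440.1 normalized counts in WT replicates 1 to 5. The *Zfp36*ΔARE libraries had 3292, 2842, 3399, 3371 and 2476. Of the *Zfp36*ΔARE libraries, 4 lay above each WT library, and replicate 5 lay within the upper part of the WT range. The mean increased from 2229 ± 459 to 3076 ± 404 (SD, n = 5), a log2 fold change of 0.46 (SE 0.15, 95% interval 0.14 to 0.79, adjusted p = 0.034 by edgeR), which is 1.38-fold. The lowest WT values were those of replicates 1 and 3, the libraries with the least hair shaft RNA, and without both of them the log2 fold change was 0.27 (adjusted p = 0.11). It was also not called (adjusted p between 0.0540 and 0.0775) with WT replicate 1 or 3, or *Zfp36*ΔARE replicate 1, 2, 3 or 4, left out alone. With the hair shaft score as a covariate, *Pnpla1* was at 0.16 (adjusted p = 0.69), in a fit that called 12 genes in all.

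Glucosylation and loading into lamellar granules went apart. *Ugcg* (chromosome 4, 59189257 to 59222833), which encodes glucosylceramide synthase, had 2133, 3261, 2346.5, 3315 and 2429 normalized counts in WT skin. In *Zfp36*ΔARE skin it had 3044, 2532, 2777, 3319 and 2946, all within or at the edge of the WT range. The log2 fold change was 0.12 (SE 0.13, 95% interval -0.18 to 0.41, adjusted p = 0.51 by edgeR).

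*Abca12* (chromosome 1, 71242276 to 71414910, minus strand, 53 exons), the lipid transporter mutated in harlequin ichthyosis, had 6054.5, 7787, 7872, 7848 and 6503 normalized counts in WT skin. The *Zfp36*ΔARE libraries had 6423, 5165, 4847, 6131 and 6273. Each *Zfp36*ΔARE library lay below 4 of the 5 WT libraries, and the overlap came from WT replicate 1 alone. The mean decreased from 7213 ± 868 to 5768 ± 712 (SD, n = 5), a fall of 0.32 on the log2 scale (SE 0.11, 95% interval -0.56 to -0.08, adjusted p = 0.042 by edgeR). This call was lost with WT replicate 2, 3 or 4 or *Zfp36*ΔARE replicate 2, 3 or 4 left out (adjusted p between 0.051 and 0.098). Without WT replicates 1 and 3 the groups did not overlap, at -0.36 (adjusted p = 0.058).

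*Smpd3* (chromosome 8, 106252548 to 106337988, minus strand) encodes a neutral sphingomyelinase, and its exons overlap those of *Prmt7* on the opposite strand. It had 2038, 3044, 3236, 2763 and 2755 normalized counts in WT skin. *Zfp36*ΔARE replicates 1 to 5 had 2042, 1817, 1867, 2836 and 2801. *Zfp36*ΔARE replicates 4 and 5 lay among the WT libraries, and the other 3 were level with or below WT replicate 1, the lowest. The log2 fold change was -0.28 (SE 0.16, 95% interval -0.64 to 0.07, adjusted p = 0.19 by edgeR). *Prmt7* had a log2 fold change of 0.22 (adjusted p = 0.030).

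**Figure D2:**
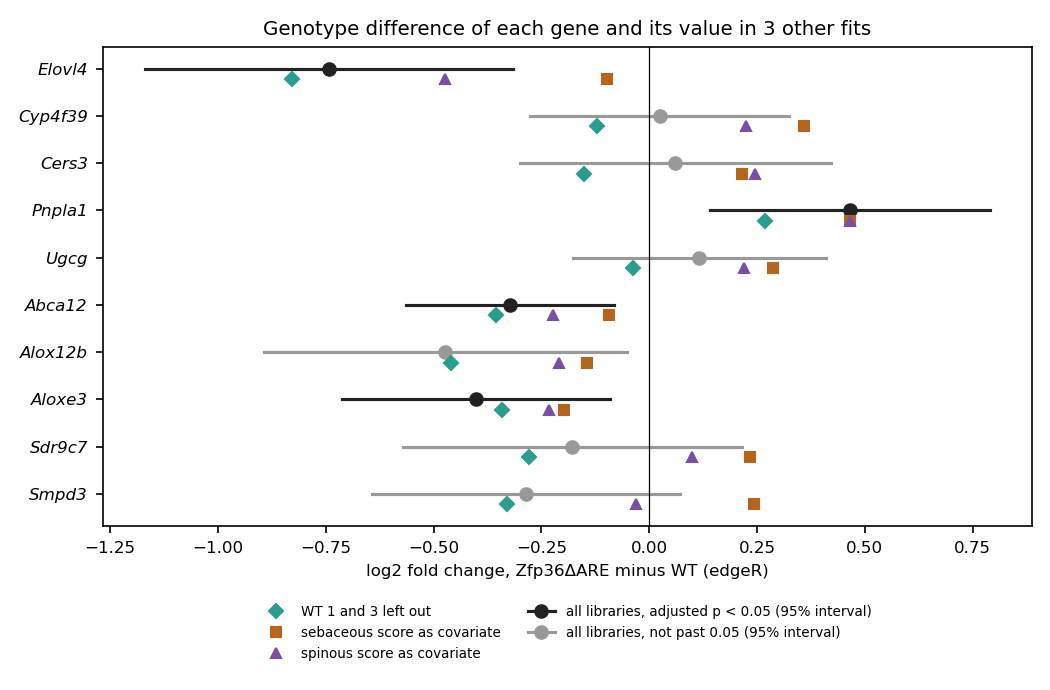
Log2 fold change (x axis, *Zfp36*ΔARE minus WT) of each gene with its 95% interval (circles, black where the adjusted p was below 0.05), and the same value without WT replicates 1 and 3 (diamonds) or with the sebaceous (squares) or spinous (triangles) marker score as a covariate. *Elovl4* moves from -0.74 to -0.10 with the sebaceous score, in a fit chosen after seeing the data that called 0 of all 15543 genes. *Pnpla1* is at 0.46 with the spinous score and 0.27 without WT replicates 1 and 3, in both cases not called (adjusted p = 0.0998 and 0.11 by edgeR).

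Both lipoxygenases of the envelope pathway pointed downward, and 1 of them was called. *Alox12b* (chromosome 11, 69156989 to 69169792) and *Aloxe3* (69125896 to 69149115) are neighbours on the plus strand, each with 15 exons in the transcript used, 7873 bases apart with 0 annotated genes between them. 12R-LOX oxygenates the linoleate and eLOX3 converts the hydroperoxide that results. *Alox12b* had 1805, 1575, 2322, 2401 and 2046 normalized counts in WT replicates 1 to 5. The *Zfp36*ΔARE libraries had 1108, 1218.5, 1158.5, 2032 and 1804. The first 3 *Zfp36*ΔARE libraries lay below each WT library, and replicates 4 and 5 lay within the WT range. The mean was 2030 ± 347 against 1464 ± 424 in *Zfp36*ΔARE skin (SD, n = 5), with a log2 fold change of -0.47 (SE 0.19, 95% interval -0.89 to -0.05, adjusted p = 0.076 by edgeR), which did not pass the threshold. It passed with DESeq2 (adjusted p = 0.047) and without *Zfp36*ΔARE replicate 4 (-0.62, adjusted p = 0.030).

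*Aloxe3* had 1582, 1440.2, 2132, 1783 and 1799 normalized counts in WT skin. *Zfp36*ΔARE replicates 1 to 5 had 1034, 1246, 1239, 1360.5 and 1738. Replicates 1 to 4 of *Zfp36*ΔARE lay below each WT library, and only replicate 5 was among them. The mean decreased from 1747 ± 261 to 1323 ± 260 (SD, n = 5), a fall of 0.40 on the log2 scale (SE 0.14, 95% interval -0.71 to -0.09, adjusted p = 0.048 by edgeR). The call was close to the threshold and was lost (adjusted p between 0.065 and 0.103) with WT replicate 1, 3, 4 or 5 or *Zfp36*ΔARE replicate 1, 2, 3 or 4 left out.

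The ratio of *Aloxe3* to *Alox12b* counts within a library was 0.877, 0.914, 0.918, 0.743 and 0.879 in WT replicates 1 to 5. *Zfp36*ΔARE replicates 1 to 5 were at 0.933, 1.02, 1.07, 0.670 and 0.963. Replicate 4 was the lowest in both groups, and the other 4 *Zfp36*ΔARE libraries lay above each WT library. The mean ratio was 0.866 ± 0.072 in WT against 0.932 ± 0.156 (SD, n = 5), a difference of 0.09 on the log2 scale that was smaller than the spread (exact two-sided permutation test, p = 0.50). Without *Zfp36*ΔARE replicate 4, the library left out because of its value, the difference was 0.21.

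*Sdr9c7* (chromosome 10, 127898518 to 127911761, 4 exons), the dehydrogenase that acts after the lipoxygenases, had 1924, 2329, 2257, 2584 and 2627 normalized counts in WT skin. In *Zfp36*ΔARE skin it had 1590.1, 1705, 1624, 2868 and 2581. The *Zfp36*ΔARE libraries fell into a low group of 3, all below WT, and a high group of 2, near the top of WT. The log2 fold change was -0.18 (SE 0.18, 95% interval -0.57 to 0.22, adjusted p = 0.45 by edgeR), and the coefficient of variation was 12.1% in WT and 29.1% in *Zfp36*ΔARE skin.

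**Figure D3:**
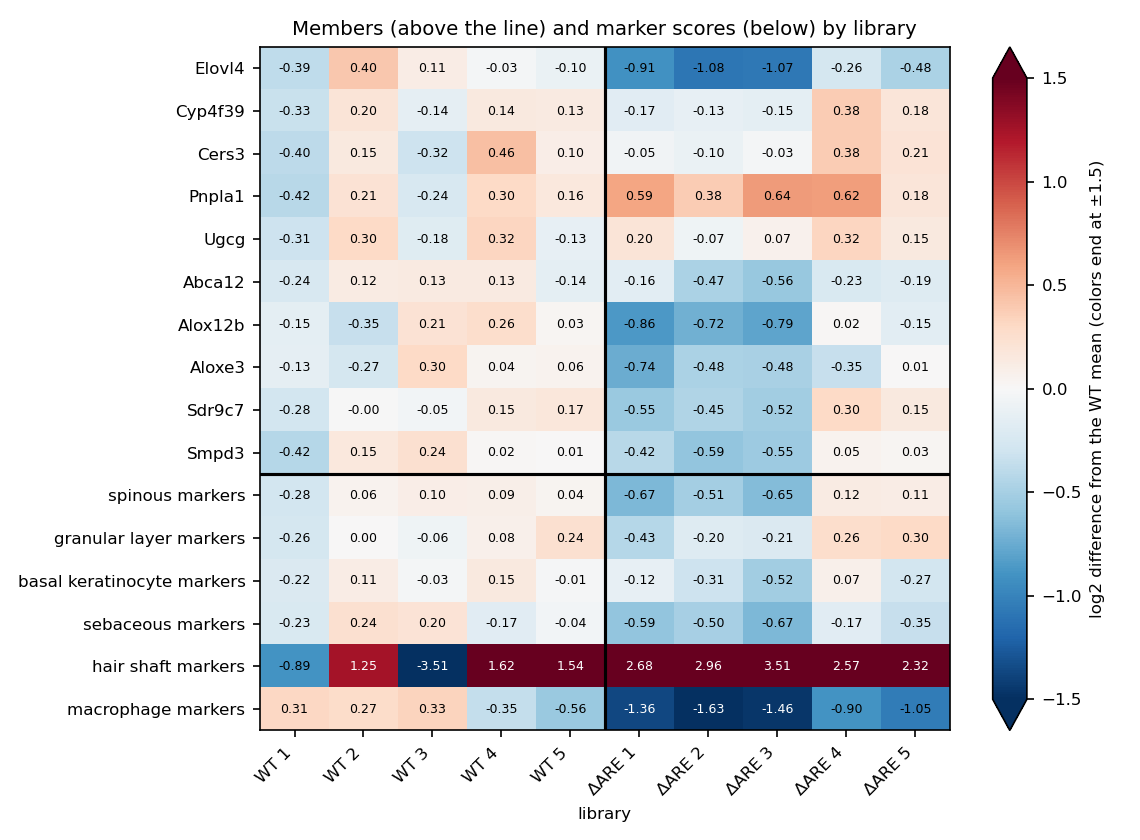
Log2 difference of each library (columns) from the WT mean for the 10 genes (above the line) and for 6 marker scores (below it), with blue for lower and red for higher and colors ending at ±1.5. *Elovl4* runs from -1.08 to -0.26 in the 5 *Zfp36*ΔARE libraries. Replicates 1 to 3 of *Zfp36*ΔARE are low together in *Alox12b*, *Sdr9c7*, *Smpd3* and the spinous markers, and lie below the WT mean in the granular markers.

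The division of the *Zfp36*ΔARE libraries into replicates 1 to 3 and replicates 4 and 5 recurred through the pathway. Replicates 1 to 3 were the lowest of their group in *Elovl4*, *Cyp4f39*, *Cers3*, *Alox12b*, *Aloxe3*, *Sdr9c7* and *Smpd3*. Spinous marker scores divided the same libraries, at 9.91, 10.07 and 9.92 in replicates 1 to 3 against 10.70 and 10.69 in replicates 4 and 5, with 10.30 to 10.67 in WT. This marker list had 1 of 6 genes called, *Sbsn* (-0.39, adjusted p = 0.028 by edgeR). Its summed normalized counts were 313362 to 463171 in WT and 192737 to 427626 in *Zfp36*ΔARE skin, with none at 0. The division was not particular to spinous markers. Granular scores were 7.11, 7.34 and 7.32 in *Zfp36*ΔARE replicates 1 to 3, against 7.80 and 7.83 in replicates 4 and 5. Sebaceous, macrophage, fibroblast and stress keratin scores were also lowest in replicates 1 to 3 of *Zfp36*ΔARE. Hair shaft and inner root sheath scores were highest in these replicates. With the spinous score as a covariate edgeR called 0 of the 10 genes, 3 of which had an unadjusted p under 0.05, and 11.2% of all genes, and *Sdr9c7* stood at 0.10 instead of -0.18. The part of the keratinocyte layers in these values was not tested. *Zfp36*ΔARE replicate 1, the library of its genotype without Y-linked counts, lay below each WT library in *Alox12b*, *Aloxe3*, *Elovl4* and *Sdr9c7*, and above each in *Pnpla1*. With Y-linked counts as a term edgeR called 0 of all genes, of which 3382 had an unadjusted p under 0.05, and the values were -0.93 for *Elovl4*, -0.76 for *Aloxe3*, -0.17 for *Abca12* and 0.56 for *Pnpla1*.

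Count ratios within libraries were compared for the 45 pairs of the 10 genes, and 9 pairs had ratios whose groups did not overlap, 6 of them with *Elovl4* and 3 with *Abca12* or *Cyp4f39*. Pairs of other genes were not examined, so this number has no background. These pairs were picked after their values were seen and are given as a description. The ratio of *Elovl4* to *Pnpla1* counts ranged from 10.6 to 17.0 in WT (mean 13.5 ± 2.67) and from 4.08 to 8.42 in *Zfp36*ΔARE skin (mean 5.84 ± 1.86), a difference of -1.24 on the log2 scale. *Elovl4* to *Ugcg* ranged from 8.59 to 13.4 in WT and from 4.99 to 7.29 in *Zfp36*ΔARE skin. Elongase transcript was thus lower relative to both genes in each *Zfp36*ΔARE library than in any WT library, replicates 4 and 5 included. The ratio of *Abca12* to *Pnpla1* ranged from 2.67 to 4.26 in WT and from 1.43 to 2.53 in *Zfp36*ΔARE skin, a difference of -0.80. *Elovl4* to *Abca12* overlapped, at 3.63 to 4.92 in WT against 2.41 to 3.95.

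**Figure D4:**
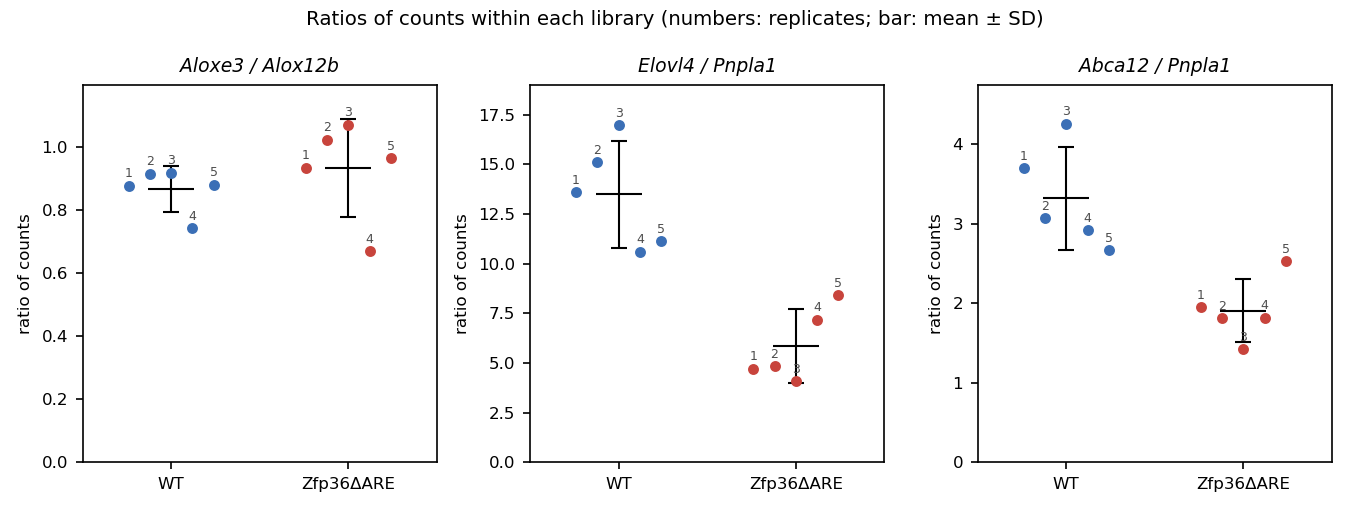
Ratio of counts of 2 genes within each library (y axis, linear from 0) for *Aloxe3* to *Alox12b*, *Elovl4* to *Pnpla1* and *Abca12* to *Pnpla1*, numbered by replicate with the mean ± SD as bars. The lipoxygenase ratio overlaps between WT (blue) and *Zfp36*ΔARE (red), while the ratio of *Elovl4* to *Pnpla1* is at least 10.6 in WT and at most 8.42 in *Zfp36*ΔARE skin.

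The genes with profiles most like the 10 genes over the 10 libraries were found by the root mean square distance of log2 normalized counts, each centred on its mean, among 13681 genes. *Elovl4* was closest to *Far2* (distance 0.122), which encodes a fatty acyl-CoA reductase and is itself one of the 8 sebaceous markers. The sebaceous score used above as a covariate thus includes the gene with the profile closest to *Elovl4*. *Far2* had 4764, 7148, 6573, 4813 and 5476 normalized counts in WT and 2776, 2903, 2393, 4443 and 3700.1 in *Zfp36*ΔARE skin, with *Zfp36*ΔARE replicate 4 the highest of its group as for *Elovl4*. *Alox12b* was closest to *Lor* (0.121), the major protein of the cornified envelope, and *Abca12* to *Itga6* (0.071), an integrin of basal keratinocytes. *Cers3* was closest to *Tmem79* (0.087) and *Cyp4f39* to *Cpa4* (0.045). For *Pnpla1* the closest gene was *Anxa9* (0.073), for *Ugcg* *Lgalsl* (0.074), for *Sdr9c7* *Nccrp1* (0.072), for *Smpd3* *Dusp22* (0.099) and for *Aloxe3* *Catsperg1* (0.104). Among the 10 genes themselves the nearest pair was *Cers3* and *Cyp4f39* (0.127), and *Elovl4* was the farthest from any other (0.257 to *Smpd3*).

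Genes for the supply of ultra-long fatty acids and acylceramides were lower, as *Elovl4* was, or were not called. Of 12 such genes, not all of which act on the ultra-long chain, 5 fell and none rose. Their median log2 fold change was -0.25, and 19.1% of all tested genes were called lower. *Fa2h*, the fatty acid 2-hydroxylase, had 4906, 8537, 6958, 5417 and 6201 normalized counts in WT and 3242, 2758.5, 2512.5, 5091 and 3522 in *Zfp36*ΔARE skin, so that only *Zfp36*ΔARE replicate 4 reached the WT range. Its log2 fold change was -0.90 (SE 0.21, adjusted p = 0.011 by edgeR). *Elovl6*, which elongates palmitate and so feeds the longer elongases, had 17669.8, 34179, 29194, 20770.4 and 19984 normalized counts in WT and 14383, 13523.5, 11920.1, 17929.9 and 18009 in *Zfp36*ΔARE skin (log2 fold change -0.68, SE 0.20, adjusted p = 0.024). *Hsd17b12* (-0.55) and *Tecr* (-0.28), which catalyse the reductions of the elongation cycle, and the acyl-CoA synthetase *Acsl4* (-0.40) also fell. Without WT replicates 1 and 3, *Fa2h* (-0.97), *Elovl6* (-0.72) and *Hsd17b12* (-0.60) were still called, and *Tecr* and *Acsl4* were not. Of the 8 sebaceous markers, 4 were also lower in *Zfp36*ΔARE skin, as given above. The paralogs *Elovl1* (-0.25), *Elovl3* (-0.41), *Elovl5* (0.22) and *Elovl7* (-0.26) did not pass, nor did *Slc27a4* (0.00), *Nipal4* (0.24) and *Abhd5* (0.01), the coactivator of PNPLA1. Of the 7 other Elovl and Cyp4f paralogs tested, 2 fell, *Cyp4f18* (-0.97) and *Cyp4f13* (-0.28), and none rose, against 19.1% and 15.3% of all tested genes.

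Of 15 genes of ceramide backbone synthesis, 3 were higher and 4 lower (median -0.20). Over all tested genes, 15.3% were called higher and 19.1% lower. *Sptssb*, a small subunit of serine palmitoyltransferase, increased from 144 ± 117 to 569 ± 180 normalized counts (SD, n = 5), a log2 fold change of 1.97 (SE 0.57, adjusted p = 0.026). Without WT replicates 1 and 3 it was at 1.40 (adjusted p = 0.027 by edgeR). *Ormdl1* (0.39), of a family that restrains the same enzyme, rose, while its catalytic subunit *Sptlc3* (-0.49) and the desaturase *Degs1* (-0.53) fell. Among the other ceramide synthases *Cers2* (-0.47, adjusted p = 0.012) and *Cers5* (-0.47, adjusted p = 0.032) fell, while *Cers4* (-0.36, adjusted p = 0.060) and *Cers6* (-0.13) were not called, and *Cers1* had 0 counts in all libraries. For ceramide release and turnover, 3 of 13 genes were higher and 2 lower (median -0.07), against the same shares of all tested genes. The sphingomyelinases *Smpd1* (0.30), *Smpd2* (0.37) and *Smpd4* (0.20) rose, unlike *Smpd3*. The ceramidase *Asah2* (-0.61) and *Psap* (-0.49), the precursor of the saposins that help to degrade sphingolipids, fell.

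Lipoxygenases outside the envelope pathway differed in both directions. Of 10 genes for lipoxygenases, the 5-lipoxygenase-activating protein and epoxide hydrolases, 2 were higher and 5 lower (median -0.57). Over all tested genes, 15.3% were called higher and 19.1% lower. *Alox8* increased from 1069 ± 523 to 3694 ± 823 normalized counts (SD, n = 5), a log2 fold change of 1.79 (SE 0.34, adjusted p = 0.0076), and *Alox12* rose by 0.89 (adjusted p = 0.014). Without WT replicates 1 and 3 these rises were 1.35 and 0.74, both still called. *Alox5* (-1.09), *Alox5ap* (-1.25) and *Alox15* (-0.78), which leukocytes also express, fell, as did *Ephx2* (-1.10). Macrophage markers moved with them, since all 7 fell, and the sums of their normalized counts were 10769 to 21142 in WT and 5105 to 8550 in *Zfp36*ΔARE skin with no marker at 0. Their part in the lipoxygenase values was not tested. *Alox12e* (-0.54, adjusted p = 0.059) and *Ephx3* (0.04), which can act on the products of the epidermal lipoxygenases, were not called.

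Attachment of the lipids to the envelope was represented by *Tgm1*, the keratinocyte transglutaminase. It had 3685, 4861, 3336, 5817 and 5456 normalized counts in WT and 6228, 6576, 6396.5, 7403.5 and 6431 in *Zfp36*ΔARE skin, each *Zfp36*ΔARE library above each WT library. The log2 fold change was 0.51 (SE 0.15, adjusted p = 0.024). Its lowest values were those of WT replicates 1 and 3, the libraries with the least hair shaft RNA, and without both it was 0.30 (adjusted p = 0.044). Of the 7 genes measured for attachment, sterol sulfate and late lipases, 2 rose and none fell, the other being *Vipas39* (0.28), and the median was 0.10. Over all tested genes, 15.3% were called higher.

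**Figure D5:**
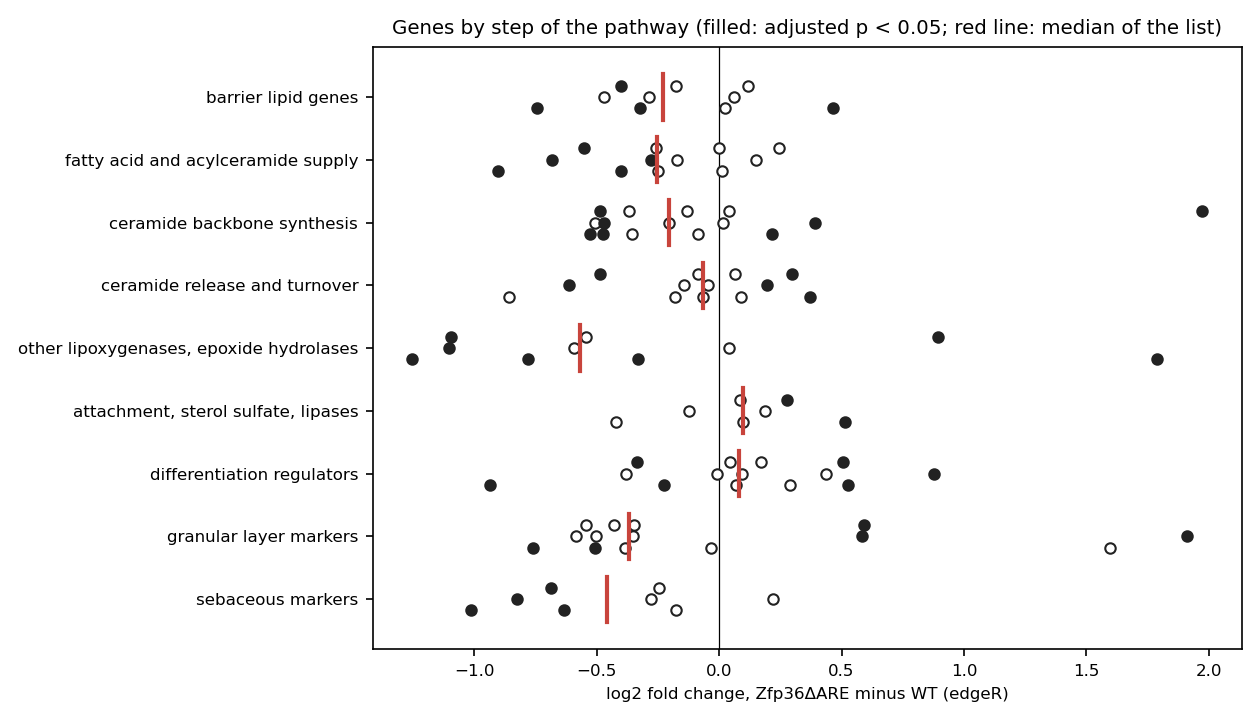
Log2 fold change (x axis, *Zfp36*ΔARE minus WT) of each tested gene of the barrier lipid genes and of 8 further lists (rows), filled where the adjusted p was below 0.05, with a red line at the median of each list. The 12 fatty acid and acylceramide supply genes hold 5 that fell and none that rose, where 19.1% of all tested genes were called lower. The row of other lipoxygenases and epoxide hydrolases spreads from -1.25 to 1.79.

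Regulators and envelope proteins of late epidermal differentiation held genes called in both directions. Of 14 regulators, 3 rose, namely *Ovol1* (0.88), *Grhl1* (0.53) and *Gata3* (0.51), and 3 fell, among them *Pparg* (-0.94), which also drives sebocyte and adipocyte differentiation, and *Cebpa* (-0.34). The median was 0.08, and over all tested genes 15.3% were called higher and 19.1% lower. Without WT replicates 1 and 3 the rises were 0.58 for *Ovol1*, 0.33 for *Grhl1* and 0.35 for *Gata3*, all still called. Hair shaft markers, of which 4 of 15 rose at a median of 2.25, were higher in the same group. The part of hair follicle cells in these values was not tested. Of 14 granular layer markers 3 rose and 2 fell (median -0.37), against the same shares of all tested genes. *Tgm3* (1.91, and 1.45 without WT replicates 1 and 3), a transglutaminase of hair follicle and epidermis, rose. The corneodesmosome protein *Cdsn* (0.59) also rose, while the filaggrin relative *Flg2* (-0.76) and the late cornified envelope gene *Lce1b* (-0.51) fell. In the fit without WT replicates 1 and 3, some of the list genes named above as called were no longer called (adjusted p between 0.059 and 0.16). These were *Tecr*, *Acsl4*, *Sptlc3*, *Degs1*, *Cers5*, *Ormdl1*, *Smpd1*, *Smpd4*, *Asah2*, *Alox15*, *Cyp4f13*, *Cyp4f18*, *Sbsn*, *Cdsn*, *Flg2* and *Lce1b*, all outside the 10 genes. The promoters of 8 of the 10 genes were given in the RefSeq table of GRCm38.p6, from 250 bases before to 50 after the start, and were read on both strands for TGANTCA (AP-1), AACCGGTT (grainyhead-like) and TTGCNNAA (C/EBP). Of these 8, 0 held TGANTCA, 0 held AACCGGTT and 1, *Pnpla1*, held TTGCNNAA, against 7.81%, 0.146% and 10.8% of 32851 promoters. No binding was measured.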

How the data were processed

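RNA was taken from DMBA/TPA-treated skin without tumors, with 1 library per mouse. The authors discarded reads of poor mean quality, mapped the others to mm10 by STAR 2.5.2b and deposited raw fragment counts per gene from featureCounts (Subread 1.5.0-p1), without normalization. Strand and multi-mapping settings are not given in the sources used here, so paralogs and overlapping genes are uncertain. Rows without a gene name numbered 2 and held 7.38e-05% of counts.

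From these counts, edgeR 4.0.16 (R 4.3.3) computed TMM factors, filtered genes with filterByExpr and fitted a robust quasi-likelihood model with genotype as the only term, with Benjamini-Hochberg adjustment over all 15543 genes. A gene was called at an adjusted p under 0.05. Normalized counts are TMM-scaled to the mean effective library size. The fit was tested on simulated counts with 200 changed genes. Alternatives were DESeq2 1.42.0, limma-voom 3.58.1, other scalings and filters, a replicate block, marker score covariates and left-out libraries. The granular, adipocyte and sebaceous covariates, and the fit without WT replicates 1 and 3 for genes outside the members, were added after the data were seen. The members and lists were chosen with earlier results of these data known. Beyond the members, the text names up to 2 called genes with the largest rise and the largest fall of each list with at least 50 normalized counts, the paralogs of Elovl, Cers and Alox, and the gene nearest in profile. Others were named after their values were seen.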

Additional observations from a re-analysis of the deposited data

Results flagged for a closer look

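The *Aloxe3* to *Alox12b* count ratio of WT replicate 4 was 0.743, against 0.877 to 0.918 in the other 4 WT libraries, and its gap to the nearest of them was 0.764 of the range of the group, above Dixon's 95% limit for 5 values. This was 1 of 22 groups examined, where chance gives about 1.1.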

How the results depend on the processing

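Over 27 alternatives and the 10 genes, 182 of 270 log2 fold changes kept their direction and their side of the threshold, 57 lost a call, 4 gained one and 27 turned direction. In the 7 alternatives that kept all libraries and added no term, 66 of 70 were kept. Called members (4, of which 1 was higher and 3 lower) ranged from 1 to 4 with each library left out in turn, 0 to 1 of them higher and 1 to 3 lower, and numbered 1 (0 higher, 1 lower) without WT replicates 1 and 3 together, where 15.9% of all genes were called. They numbered 0 (0 higher, 0 lower) with the hair shaft, spinous, skeletal muscle, sebaceous or adipocyte score as a covariate, with Y-linked counts as a term, and in the libraries without Y-linked counts alone, where the lone *Zfp36*ΔARE library was assumed to vary like WT. With the granular score they numbered 4 (1 higher, 3 lower), *Alox12b*, *Aloxe3*, *Elovl4* and *Pnpla1*, and 32.5% of all genes were called. Of the fits with 0 members the spinous one called 11.2% of all genes, the hair shaft one 0.0772%, the muscle one 0.0129% and the others 0, with an unadjusted p under 0.05 for 0 to 4 of the members and 1187 to 5679 of all genes. With the replicate block, 2 members were called (0 higher), *Alox12b* and *Elovl4*, and 17.6% of all genes. Same-numbered libraries deviated from their group means with correlations from -0.173 to 0.084, so the numbers were not taken as pairs, and 0 of 5 WT libraries were most like the *Zfp36*ΔARE library of their own number.

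Without *Zfp36*ΔARE replicate 4, *Aloxe3* to *Alox12b* differed by 0.21, and by 0.0362 to 0.205 over all left-out libraries. All values that turned direction were of uncalled genes. *Cers3* was at -0.15 without WT replicates 1 and 3, -0.23 with the hair shaft score, -0.36 with the muscle score, -0.0839 with the Y-linked term, -0.0818 in libraries without Y-linked counts, -0.48 with the adipocyte score and -0.0305 to 0.189 with libraries left out. *Ugcg* was at -0.0378, -0.0793 and -0.22 in the first 3 of these fits and -0.26 with the adipocyte score. *Cyp4f39* was at -0.0064 with upper-quartile scaling, then -0.12, -0.13, -0.31, -0.18, -0.18 and -0.38 in the order given for *Cers3*, and -0.0758 to 0.0748 with libraries left out. *Sdr9c7* was at 0.10 with the spinous and 0.23 with the sebaceous score, and *Smpd3* at 0.24 with the latter. The cause was not tested. There were 5 mice a group, with a median biological coefficient of variation of 14.9%. The 95% interval of *Cyp4f39*, with no detectable difference, still reached from -0.28 to 0.32. Some other uncalled members had wider intervals, such as -0.57 to 0.22 for *Sdr9c7* and -0.64 to 0.07 for *Smpd3*.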

Other observations

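Markers of cells other than differentiating keratinocytes also differed between the groups, where 19.1% of all tested genes were called lower and 15.3% higher. Of 8 skeletal muscle markers 7 fell, led by *Actn3* (log2 fold change -2.07) and *Myh4* (-1.88). Without WT replicates 1 and 3, only *Acta1* of the muscle markers was still called (-0.95, adjusted p = 0.029 by edgeR). *Actn3* was then at -1.43 (adjusted p = 0.10) and *Myh4* at -1.25 (adjusted p = 0.19). Of 7 adipocyte markers 5 fell, led by *Pck1* (-1.84) and *Cidec* (-1.47). *Pck1* (-1.18) and *Cidec* (-1.03) were still called without WT replicates 1 and 3. All 5 endothelial markers fell, among them *Pecam1* (-1.09) and *Kdr* (-1.04), as did 3 of 6 fibroblast markers, including *Pdgfra* (-0.88). Of 15 hair shaft markers 4 rose, including *Krt84* (2.27) and *Krt36* (1.75), and the median was 2.25. Of 8 inner root sheath markers 0 passed, at a median of 1.37. In the fit without WT replicates 1 and 3, each hair shaft marker except *Krt84* (1.67, adjusted p = 0.078 by edgeR) was called higher. The inner root sheath genes *Krt25*, *Krt27*, *Krt71*, *Krt73* and *Tchh* were then also called higher, and *Krt26*, *Krt28* and *Krt72* were not. Basal keratinocyte markers held 2 of 6 genes that fell, *Itgb4* (-0.35) and *Itga6* (-0.29), and 0 of 4 stress keratins passed. Among sebaceous markers the largest fall was that of *Scd1* (-1.01, adjusted p = 0.0081 by edgeR), a desaturase.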
